A study of Arabidopsis thaliana with 4 samples.

Results

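Seedlings of the Arabidopsis thaliana wbc19 mutant were compared with seedlings of a control line while both grew on kanamycin. The comparison sets 1 library against 1 library and asks how transcript abundance under the antibiotic differs between the lines. A gene is a member where its 4 libraries average 20 FPKM or more, FPKM being the sequenced fragments per kilobase of transcript, scaled to the mapped fragments of the library. Of 33539 genes and assembled loci with usable values, 3702 are members, and 3397 of these code for proteins. For each member the log2 ratio of the FPKM values was taken after adding 1 to both, so that ratios of low values are understated.

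Both lines come from the same T-DNA insertion collection. The wbc19 mutant is SALK_107731, and the control is SALK_064816C, whose insertion lies upstream of TRANSPARENT TESTA 4 and leaves every gene intact. The T-DNA of both lines carries the bacterial resistance gene NPTII. Per the study, the control line is resistant to kanamycin at 50 mg/l and shows no visible symptoms. The mutant is sensitive at this dose and has stunted roots and green leaves. Whole seedlings were harvested on day 5 on MS medium without kanamycin or with 50 mg/l, and each of the 4 conditions gave 1 library of poly(A) RNA. The files therefore hold no replicates, no test was run, and a member was counted as higher or lower where it differed at least 2-fold. Higher and lower refer throughout to the library labelled wbc19 mutant + kanamycin relative to the library labelled control + kanamycin. Where 4 values of a gene are given in a row, they stand for the libraries labelled control, control + kanamycin, wbc19 mutant and wbc19 mutant + kanamycin, and where 1 value is set against another, the library labelled control + kanamycin comes first.

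Kanamycin is an aminoglycoside that binds the small subunit of bacterial ribosomes and causes misreading of the message. The ribosomes of chloroplasts and mitochondria descend from bacterial ones, and in plants the best known damage is to the chloroplast. WBC19 is an ATP-binding cassette transporter, and Arabidopsis seedlings, themselves sensitive to the antibiotic, are more so without it. It is placed in the vacuolar membrane, where it may remove kanamycin from the cytosol.

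WBC19 (AT3G55130, chromosome 3, 20433878 to 20436390 in TAIR10) is not a member. It was listed at 0 FPKM in both libraries labelled control and above 0 in both libraries labelled mutant. This is not the order that the labels of a knockout would give. Its value was 3.00 FPKM in the library labelled wbc19 mutant, about 10 reads with an exact 95% Poisson interval of 1.47 to 5.64 FPKM. In the library labelled wbc19 mutant + kanamycin it was 2.30 FPKM, about 4 reads with an interval of 0.582 to 5.46 FPKM. The worth of 3 reads, which a count of 0 allows, was 1.53 FPKM for the control library and 0.824 FPKM for its kanamycin counterpart. The intervals of the libraries labelled mutant begin below these limits, so the order of the lines is uncertain. Where on the gene the reads lie is not known. Intervals and limits cover counting error only, and the libraries are called by their labels.

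The libraries differed in how their reads were spread over genes. One read on a transcript of 1 kb was worth 1.26, 0.68, 0.76 and 1.32 FPKM in the libraries labelled control, control + kanamycin, wbc19 mutant and wbc19 mutant + kanamycin, as estimated from the spacing of low values. A member at 20 FPKM thus rested on 14.6 to 28.3 reads per kb. The libraries in which a read was worth least also had the fewest rows above 0, 11090 and 9013 against 15072 and 13217. The share of intronless genes above 0 that held about 1 read was 15.9%, 3.31%, 2.51% and 12.3%, in the same order. The fragments were amplified by PCR without molecular identifiers. The part of this uneven spread in the ratios was not tested.

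On kanamycin, 768 members were at least 2-fold higher, 20.7% of all, and 1051 were at least 2-fold lower, 28.4%, so that 49.1% were 2-fold apart. The median log2 ratio of all members was −0.19, and the middle range between quartiles ran from −1.18 to 0.71. Lists of genes are read below against these values. Scaling the libraries by the median of ratios would add 0.18 to every log2 ratio of an abundant gene, and scaling by upper quartiles 0.56, which turned 27 of 54 list medians to the other sign. Of the calls, 42.2% were higher as deposited, 48.1% after scaling by the median of ratios and 61.4% after scaling by upper quartiles. A list is therefore described by its distance from the median of all members, and the sign of a small median has no meaning of its own.

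**Figure D1:**
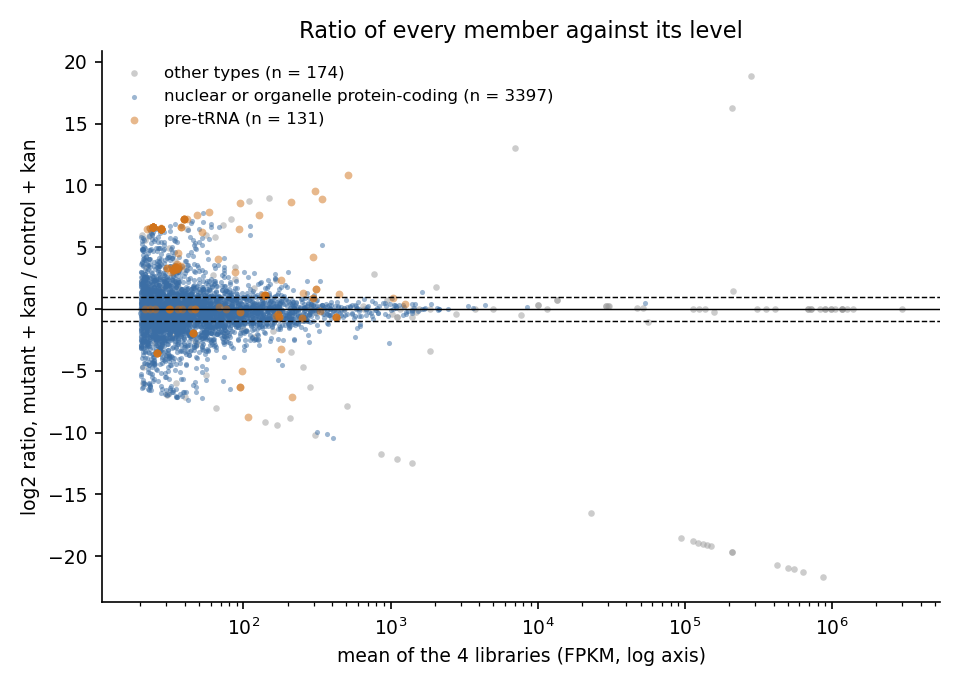
Log2 ratio of each of the 3702 members (y axis) against its mean FPKM over the 4 libraries (x axis, log scale). Dashed lines mark the 2-fold limits, the spread narrows with rising level for protein-coding genes (blue), and pre-tRNAs (orange) lie mostly above 0.

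The share of members past 2-fold fell with their level. Among 2030 protein-coding members with a mean of 20 to 50 FPKM, 24.7% were higher and 32.8% lower. Of the 83 with a mean of at least 500 FPKM, 77 stayed within 2-fold, with a median log2 ratio of −0.01. Abundant transcripts thus differed little between the lines on kanamycin, and most calls rest on members near the level at which they were admitted.

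**Figure D2:**
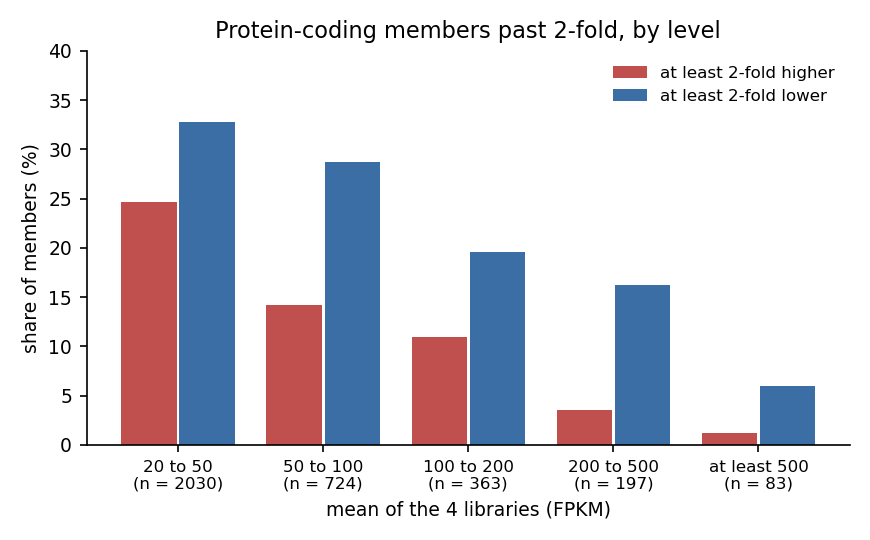
Share of protein-coding members at least 2-fold higher (red) and lower (blue) in 5 classes of mean FPKM over the 4 libraries. The share higher goes from 24.7% in the lowest class to 1.2% in the highest, and the share lower from 32.8% to 6.02%.

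Members were admitted on all 4 libraries and called on both kanamycin libraries, which favours these as extremes. Several genes named below, beyond those for which it is stated, reach 20 FPKM only through their highest library. The library labelled control + kanamycin was the lowest of the 4 for 621 of the 768 higher members, while the library labelled wbc19 mutant + kanamycin was the highest for 365. For the 1051 lower members, the library labelled control + kanamycin was the highest of the 4 for 719 and that labelled wbc19 mutant + kanamycin the lowest for 603. Farthest from the median of the other libraries was the library labelled control + kanamycin for 400 of the higher members and 387 of the lower, and that labelled wbc19 mutant + kanamycin for 170 and 347. Over the 3312 nuclear protein-coding members, levels on the log2 scale correlated with r = 0.481 between the libraries labelled control + kanamycin and wbc19 mutant + kanamycin, across genes and within single libraries. The correlation of the library labelled wbc19 mutant + kanamycin with that labelled control was 0.711, the highest of the 6 pairs of libraries, and 35% of these members were 2-fold apart there against 47.9% on kanamycin. These 2 libraries are also those with the most rows above 0.

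Without kanamycin, the same members were 2-fold apart between the lines about as often, with 919 higher (24.8%) and 943 lower (25.5%), together 50.3%. The comparisons with and without kanamycin share no library. In the comparison without it, scaling by the median of ratios shifted the log2 ratio of an abundant gene by −0.02. Scaling by upper quartiles shifted it by −1.02, and the median of all members was then −1.0. Medians and counts without kanamycin are given as deposited, here and below, and depend on this choice. Of the 768 members higher on kanamycin, 29.8% were also higher and 26.8% lower without the antibiotic. Of the 1051 lower members, 30.1% were lower and 26.3% higher there. Across the 3312 nuclear protein-coding members, the log2 ratios of both comparisons correlated with r = 0.061. In these libraries, the ratio on kanamycin was thus nearly unrelated to that without it. Counting error in single libraries lowers such a correlation, and its part was not tested. Whether the line's effect differs with kanamycin was not tested either, since a replicate is lacking.

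The abundant transcripts of photosynthesis were alike in both lines on kanamycin. Light-harvesting antenna proteins, which bind chlorophyll and pass light energy to the reaction centres, had 1 higher and 0 lower of 21 members, with a median log2 ratio of 0.25. The photosystem I subunits had 0 of 13 members past 2-fold, and their median was −0.20. The Calvin cycle, which fixes carbon dioxide, had 0 of 15 past 2-fold and a median of 0.16. RBCS1A, a small subunit of Rubisco, was the highest of these at 8813 FPKM in the library labelled control, 6472 in that labelled control + kanamycin, 11376 in that labelled wbc19 mutant and 7282 in that labelled wbc19 mutant + kanamycin, a log2 ratio of 0.17. CAB2, an antenna protein of photosystem II that the study singles out, was at 1511, 1782, 1968 and 2306 FPKM in the same order of libraries, a log2 ratio of 0.37. The values that the study reports for CAB2, lower in the mutant on kanamycin, are those of an assembled locus with the coordinates of CAB2. This locus was at 980 FPKM against 0. Near-identical LHCB1 genes can share reads of this length, so that their single values are uncertain.

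Rarer photosynthesis members were more scattered. LHCA6, a photosystem I antenna protein that links to the NDH complex, was the 1 antenna member that was higher, at 36.4, 13.4, 131 and 69.5 FPKM in the 4 libraries. Photosystem II and oxygen-evolving subunits had 2 higher and 4 lower of 18 members, with a median of −0.04. PSBP-1, PSBR, PSBX and PSBO1, the most abundant of them, had log2 ratios between −0.18 and 0.39. Electron carriers and the chloroplast ATP synthase had 1 higher and 2 lower of 14 members and a median of 0.28. FD3, a ferredoxin of non-green tissue, was lower with 75, 55.8, 1.11 and 18.2 FPKM.

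The chloroplast NDH complex passes electrons from ferredoxin back to plastoquinone and so sustains cyclic flow around photosystem I. Its 16 members, encoded in the nucleus, split into 6 higher and 5 lower, with 5 within 2-fold and a median log2 ratio of 0.46. NdhO was at 41.3, 5.85, 69.7 and 113 FPKM in the 4 libraries, a log2 ratio of 4.06. NdhS, the subunit at which ferredoxin binds, went the other way with 29.8, 45.4, 7.89 and 1.21 FPKM and a log2 ratio of −4.39. PnsL1 was at 48.3, 0.016, 0.0404 and 127 FPKM, so that the low value of the pair on kanamycin was less than 1 read. Subunits of 1 complex therefore differed in opposite directions between these libraries. Without kanamycin, 0 of the 16 were higher and 9 lower in the library labelled wbc19 mutant, with a median of −1.40.

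Chlorophyll biosynthesis had 4 higher and 4 lower of 20 members and a median log2 ratio of 0.02. PCB2, which reduces a vinyl side group of the chlorophyll precursor, was at 52.1, 5.88, 28 and 79.5 FPKM in the 4 libraries, a log2 ratio of 3.55. FLU, a negative regulator of the pathway, was the lowest with 87.5 FPKM against 22.9 and a log2 ratio of −1.89. The abundant members CRD1, CHLI1, CHLM and PORB had log2 ratios between −0.38 and 0.96. Photorespiration, which salvages the product of Rubisco's reaction with oxygen, had 0 higher and 2 lower of 10 members and a median of −0.15.

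Plastid transcription and translation factors had 5 higher and 1 lower of 15 members and a median log2 ratio of 0.73. PTAC6, which the plastid RNA polymerase needs for its activity, was at 52.8, 2.07, 14.5 and 54.6 FPKM in the 4 libraries, a log2 ratio of 4.18. Among the other higher members were SIG2 at 1.98, SIGC at 1.13 and SIGF at 1.01, sigma factors that direct the plastid RNA polymerase to promoters, named after their values were seen. PTAC14 was lower at 47.0 against 21.6 FPKM. The list stood 0.48 to 1.03 above the median of all members in the settings tried. Its median without kanamycin was −0.16.

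Proteins of the plastid ribosome, the target of aminoglycosides in chloroplasts, were close to all members. The 27 nuclear-encoded plastid ribosomal proteins had 3 higher, 3 lower and a median log2 ratio of −0.18. EMB3137 was the highest at 311, 70.3, 112 and 278 FPKM in the 4 libraries, a log2 ratio of 1.97. RPS9 was the lowest at 167, 225, 178 and 35.6 FPKM, a log2 ratio of −2.62. Plastid proteases and the import machinery, which bring nuclear-encoded proteins in and clear damaged ones, had 3 higher and 3 lower of 26 members and a median of 0.25. TOC33, an import receptor of the outer envelope, was higher with 25.7, 7.91, 11.6 and 62.1 FPKM. VAR2, VAR1, CLPC1 and CLPP5, protease and chaperone subunits that were the most abundant of this list, had log2 ratios between 0.06 and 0.37.

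Transcripts of the chloroplast genome itself were measured from poly(A) RNA, where most plastid messages are not retained, and many share reads with neighbours in the same transcription unit. The plastid-encoded gene expression machinery had 5 higher and 12 lower of 29 members and a median log2 ratio of −0.78, below the median of all members in the settings tried. Of its parts, 3 of 4 RNA polymerase subunits were lower and 5 of 14 proteins of the small ribosomal subunit, while proteins of the large subunit had 4 higher and 4 lower of 10. RPL32, a protein of the large subunit, was at 713, 2373, 475 and 352 FPKM in the 4 libraries, a log2 ratio of −2.75. RPS14 (ATCG00330), of the small subunit, was at 860, 742, 841 and 869 FPKM and within 2-fold.

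Plastid-encoded photosynthesis genes had 8 higher and 13 lower of 39 members and a median log2 ratio of −0.33. PSBA and RBCL, for the D1 protein of photosystem II and the large subunit of Rubisco, had log2 ratios of 0.20 and −0.05. PSBD, for the D2 protein, was at 424, 1001, 608 and 335 FPKM in the 4 libraries, a log2 ratio of −1.58. PSBM, a small photosystem II subunit, was at 786, 1342, 975 and 3467 FPKM, a log2 ratio of 1.37. By complex, photosystem I had 0 of 5 members past 2-fold, photosystem II 3 higher and 6 lower of 13, and the plastid-encoded NDH subunits 1 higher and 4 lower of 8. The ATP synthase stood apart with 3 higher and 0 lower of 5 and a median of 2.02. Some of the short genes were extreme, as PSBT, whose locus in the files spans a whole transcription unit, at 253, 1372, 0 and 0 FPKM.

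**Figure D3:**
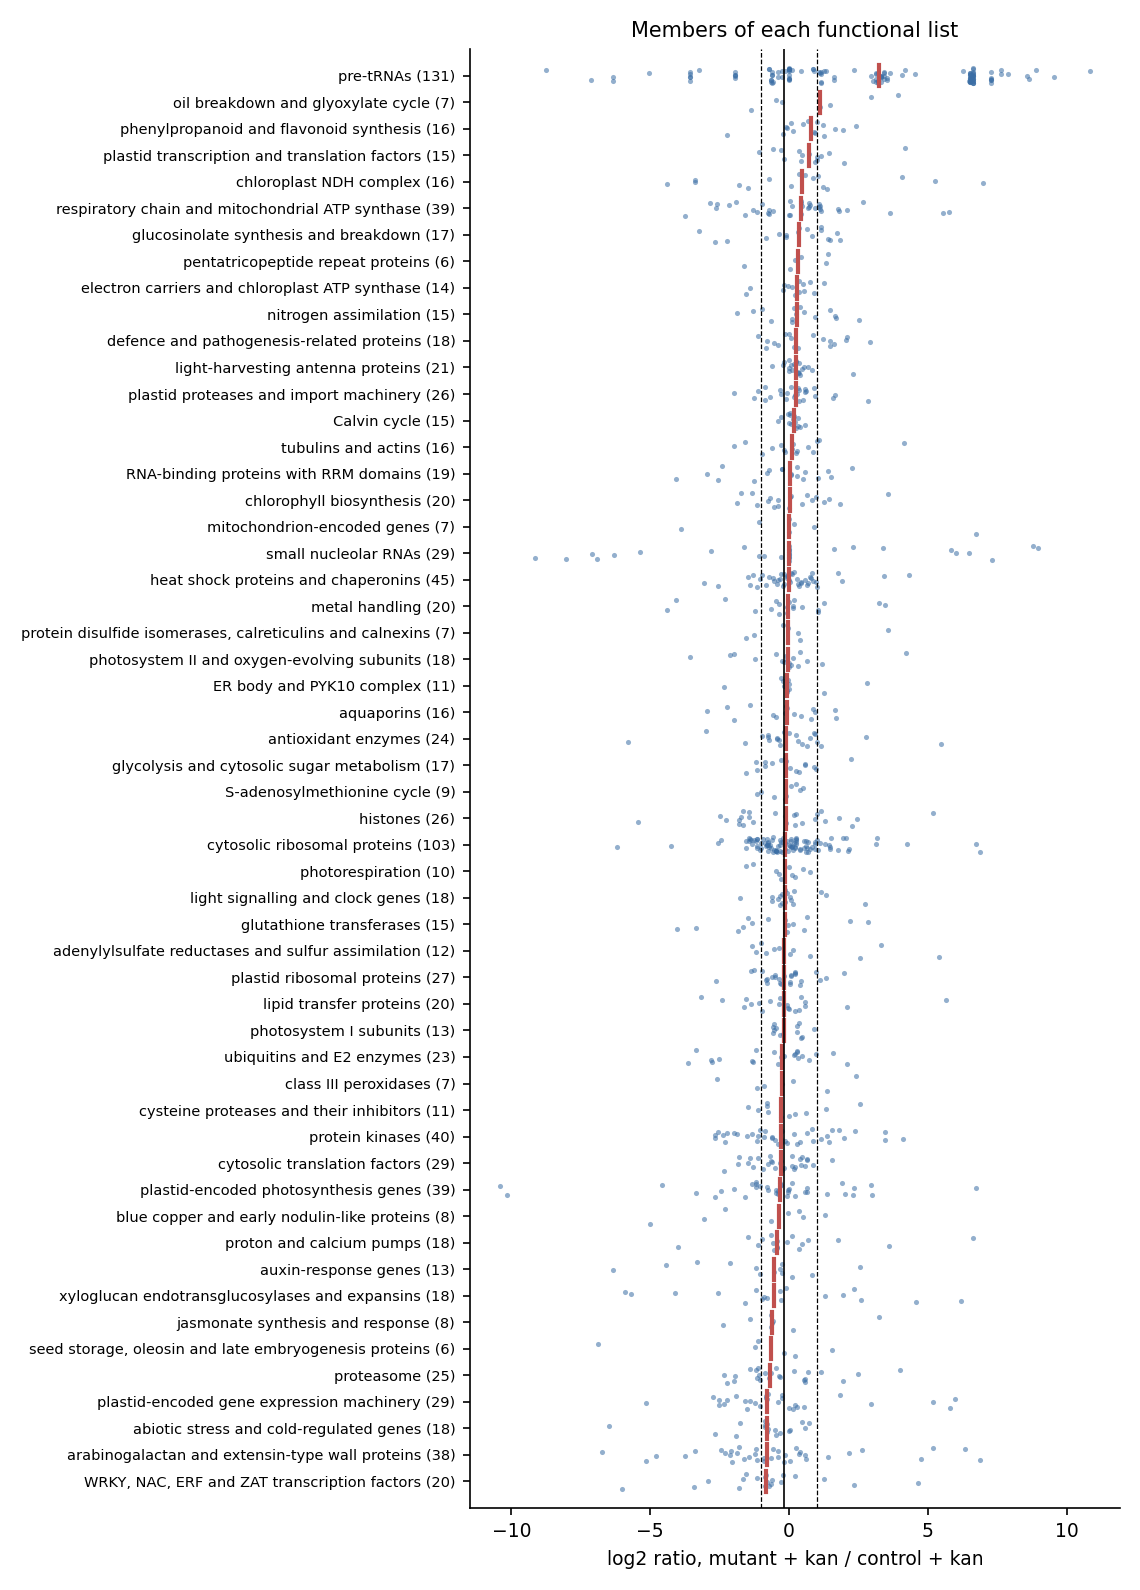
Log2 ratio of each member (blue points) in 54 functional lists, ordered by their median (red bars), with the number of members in brackets. The solid line is the median of all members, −0.19, the dashed lines are the 2-fold limits, and most medians lie near the solid line while single members spread over several log2 units.

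Mitochondria hold the other ribosomes of bacterial descent. Subunits of the respiratory chain and the mitochondrial ATP synthase had 12 higher and 9 lower of 39 members and a median log2 ratio of 0.44. AT2G02050, a subunit of complex I, was at 36.6, 8.40, 23.5 and 115 FPKM in the 4 libraries, a log2 ratio of 3.63. SDH4, a subunit of succinate dehydrogenase, was at 48.1, 0, 109 and 53.5 FPKM. SDH6, from the same complex in plants, was at 93.3, 63.3, 9.76 and 3.81 FPKM, a log2 ratio of −3.74. The complexes were therefore mixed in direction, as the NDH complex was. mtACP2, a mitochondrial acyl carrier protein tied to lipoic acid synthesis and complex I, was at 63.8, 2.01, 32 and 90.6 FPKM, a log2 ratio of 4.93. Only 7 mitochondrion-encoded protein genes were members, and ORF107A, the most abundant, stayed between 1555 and 2010 FPKM in all 4 libraries.

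The cytosolic ribosome was nearly centred on all members. Of 103 cytosolic ribosomal protein genes, 17 were higher and 19 lower, with a median log2 ratio of −0.13. Without kanamycin 5 were higher and 39 lower in the library labelled wbc19 mutant, with a median of −0.56. Gene copies of ribosomal proteins resemble each other, and reads of this length may be split between them. Cytosolic translation factors had 1 higher and 7 lower of 29 members and a median of −0.30. EIF4A1, the helicase that opens the start of messages, was at 142, 209, 280 and 75.1 FPKM in the 4 libraries, a log2 ratio of −1.46. FBR12, an eIF5A protein, was at 518, 291, 337 and 336 FPKM and within 2-fold.

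The proteasome, which degrades ubiquitin-tagged proteins, had 4 higher and 10 lower of 25 members and a median log2 ratio of −0.67. PAF1, a subunit of its core, was at 8.45, 57.7, 211 and 10.7 FPKM in the 4 libraries, a log2 ratio of −2.33. EMB2107, a subunit of its lid, was the highest at 2.72 FPKM against 58.1 and a log2 ratio of 3.99. Across the settings tried the list lay between 0.53 below and 0.06 above the median of all members. Ubiquitins and E2 enzymes, which tag proteins for it, lay close to all members and had 2 higher and 8 lower of 23 members and a median of −0.24, while the abundant UBQ10 was at 444 FPKM against 501.

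Several of the highest members act in the endoplasmic reticulum, where secreted proteins are made and folded. UNE5, a protein disulfide isomerase, was at 56.0, 6.31, 19.5 and 85.8 FPKM in the 4 libraries, a log2 ratio of 3.57. AT2G21160, an alpha subunit of the translocon-associated protein complex, was at 68.1, 13.6, 17.8 and 169 FPKM, a log2 ratio of 3.54. SEC61 BETA, a subunit of the translocon, was at 63.3, 0, 22.3 and 128 FPKM. The wider list of disulfide isomerases, calreticulins and calnexins was not shifted, with 1 higher and 2 lower of 7 members and a median of −0.04. PDIL1-1, another disulfide isomerase, was lower at 103 FPKM against 34.2, and CNX1, a calnexin, was at 78.5 against 67.9. The 28 members whose description places them in this compartment had 10 higher and 8 lower and a median of −0.26.

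**Figure D4:**
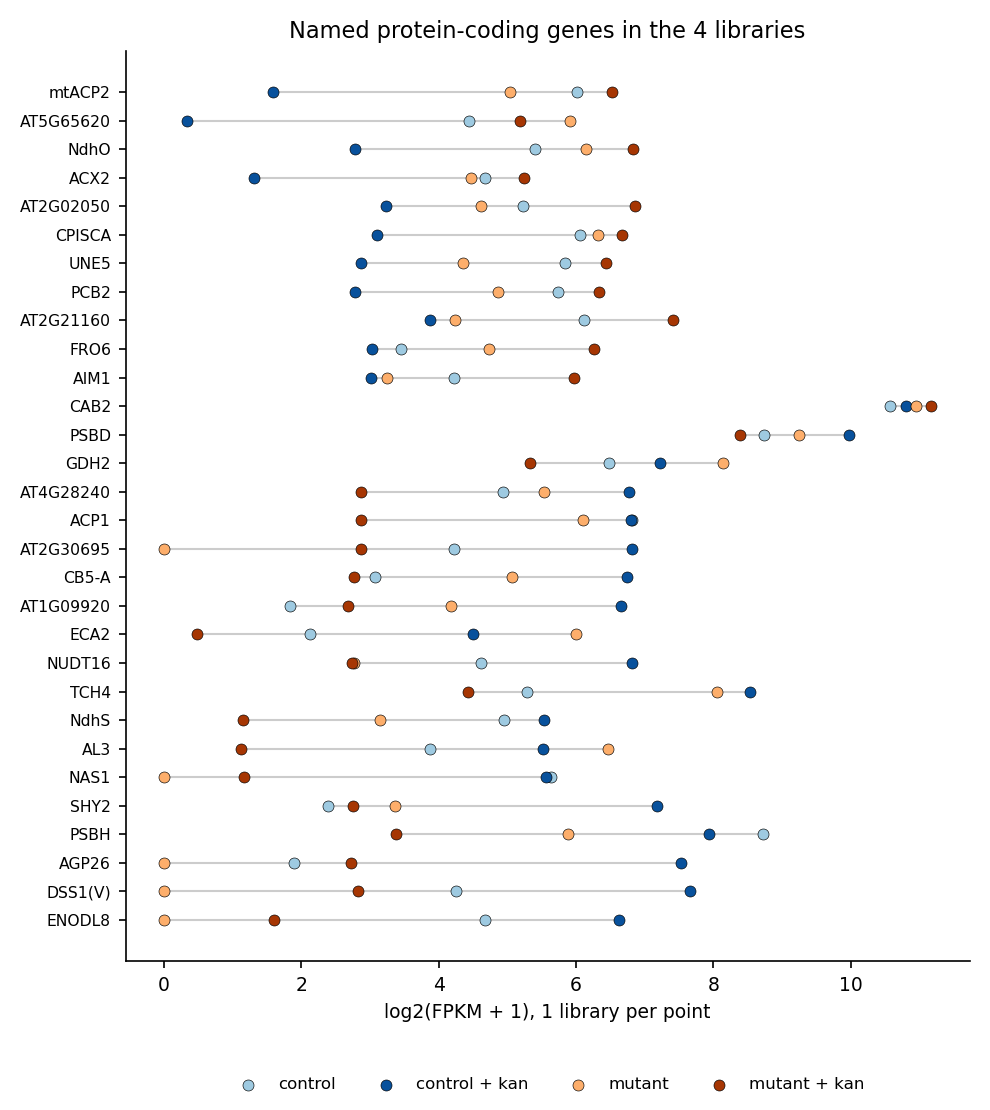
Log2(FPKM + 1) of 30 named protein-coding genes in each of the 4 libraries, 1 point per library, ordered by the log2 ratio on kanamycin. For most of the upper genes, the dark blue point of the library labelled control + kanamycin is the lowest of the 4, as for NdhO at 5.85 FPKM, and for many of the lower genes it is the highest, as for TCH4 at 369 FPKM.

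Wall proteins with arabinogalactan or extensin motifs, which are secreted by growing cells, had 17 lower and 7 higher of 38 members. Their median log2 ratio was −0.78, and in the settings tried the list lay from 0.65 below to level with the median of all members. AGP15 was at 184, 647, 121 and 149 FPKM in the 4 libraries, a log2 ratio of −2.11. AGP26 was at 2.71, 183, 0 and 5.59 FPKM, a log2 ratio of −4.80. AGP18 was at 10.4, 106, 40.3 and 0 FPKM. AGP26 and AGP18 reached the level of a member only through the library labelled control + kanamycin, so a high value there is set by the filter. Among members chosen by the libraries without kanamycin, the list lay 0.12 below the median of all members. ELP and EXT3, which were the most abundant of this list, were at 345 and 235 FPKM against 300 and 239, and AGP21 went the other way with 93.4, 0, 31.7 and 116 FPKM.

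Xyloglucan endotransglucosylases and expansins, which loosen the wall, had 6 higher and 6 lower of 18 members and a median log2 ratio of −0.56. TCH4, induced by touch and by growth hormones, was at 37.8, 369, 263 and 20.6 FPKM in the 4 libraries, a log2 ratio of −4.10 that rests on about 844 and 24 reads. EXPA10, an expansin, was at 21.7, 0, 15.3 and 71.6 FPKM. XTH7 and XTH24, abundant members, had log2 ratios of −0.10 and −0.31. Tubulins and actins had 3 higher and 2 lower of 16 members and a median of 0.12. Aquaporins, the water channels, had 2 higher and 4 lower of 16, a median of −0.09, and log2 ratios between −0.14 and 0.92 for the 4 most abundant.

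Auxin-response genes were lower in 6 and higher in 1 of 13 members, with a median log2 ratio of −0.55. SHY2, which is IAA3 and represses auxin signalling in roots, was at 4.23, 144, 9.31 and 5.73 FPKM in the 4 libraries, a log2 ratio of −4.43. IAA2 was at 43.8, 153, 90.1 and 66.7 FPKM, and IAA9 at 54.9, 106, 247 and 88.7 FPKM. IAA7, a repressor of the same family, was higher with 87.5, 19.3, 69.7 and 118 FPKM and a log2 ratio of 2.55. For SHY2 and IAA2 the library labelled control + kanamycin was the highest, through which alone SHY2 reached the level of a member, and for IAA7 it was the lowest. Without kanamycin the list had 5 higher and 2 lower members and a median of 0.72.

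Transcription factors of the WRKY, NAC, ERF and ZAT families, many of which respond to stress within minutes to hours, had a median of −0.82, with 3 higher and 7 lower of 20 members. The list lay 0.62 below the median of all members, 0.08 below it at a mean of 50 FPKM or more and 0.73 below it among members chosen by the libraries without kanamycin. WRKY18, which acts in defence against pathogens, was at 15.7, 64.4, 10.8 and 0 FPKM in the 4 libraries. WRKY18 reached the level of a member only through the library labelled control + kanamycin, so a high value there is set by the filter. ZAT7 was at 1.88, 41.6, 211 and 13.4 FPKM, a log2 ratio of −1.57. RHL41, a zinc finger protein of light and cold acclimation, was the highest with 6.28, 0, 198 and 24.0 FPKM. Both zinc finger genes were highest in the library labelled wbc19 mutant. Without kanamycin the list had 7 higher and 3 lower members and a median of 0.58. Protein kinases had 10 higher and 13 lower of 40 members and a median of −0.30, and MPK3, a stress-activated kinase, was at 29.8, 139, 124 and 20.9 FPKM.

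Jasmonate genes had 1 higher and 2 lower of 8 members and a median log2 ratio of −0.63, against 4 higher, 1 lower and a median of 1.04 without kanamycin. LOX2, a chloroplast lipoxygenase of jasmonate synthesis, was at 98.3, 90.4, 69.5 and 33.7 FPKM in the 4 libraries, a log2 ratio of −1.40. Light signalling and clock genes had 3 higher and 1 lower of 18 members and a median of −0.15. CRY2, a blue light receptor, was at 37.4, 8.17, 10.4 and 59.3 FPKM, a log2 ratio of 2.72. COL3 and COL4, zinc finger proteins of light signalling, were within 2-fold.

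Genes named for drought and cold in the description column were lower in 4 and higher in 0 of 18 members, with a median log2 ratio of −0.78. The share lower, 22.2%, was under the 28.4% of all members. ERD15, induced early in dehydration, was at 260, 593, 278 and 174 FPKM in the 4 libraries, a log2 ratio of −1.76. RCI2B, a small membrane protein induced by cold, was at 104, 87.6, 134 and 0 FPKM. RD21A, a cysteine protease of the same list, was at 222 FPKM against 224. Defence and pathogenesis-related proteins had 7 higher and 1 lower of 18 members and a median of 0.26, and the log2 ratios of the 4 most abundant lay between −1.13 and 0.06. The list lay 0.45 above the median of all members, but 0.06 above it among members chosen by the libraries without kanamycin.

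Genes that handle oxidants were not shifted as a group. Antioxidant enzymes had 4 higher and 3 lower of 24 members and a median log2 ratio of −0.10, and CAT2 (AT4G35090), a catalase, was at 414 FPKM against 412. CSD2, the chloroplast copper and zinc superoxide dismutase, was at 10.5, 55.4, 39.0 and 0 FPKM in the 4 libraries. FSD1, the iron-dependent enzyme, was at 331 FPKM against 391. Glutathione transferases, which attach glutathione to toxic compounds, had 2 higher and 6 lower of 15 members and a median of −0.16. GSTF6 was at 62.4, 42.6, 121 and 1.65 FPKM, a log2 ratio of −4.04, and GSTU7 at 5.34, 12.9, 16.0 and 98.4 FPKM, a log2 ratio of 2.83. GSTU7 reached the level of a member only through the library labelled wbc19 mutant + kanamycin. Heat shock proteins and chaperonins had 4 higher and 7 lower of 45 and a median of −0.02, and HSC70-1, the most abundant cytosolic one, was at 423 FPKM against 403.

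Metal handling, a theme of the study, had 5 higher and 4 lower of 20 members and a median log2 ratio of −0.03. FRO6, a ferric reductase of green tissue, was at 9.91, 7.18, 25.5 and 75.6 FPKM in the 4 libraries, a log2 ratio of 3.23. NAS1, which makes the metal chelator nicotianamine, was at 48.9, 46.1, 0 and 1.24 FPKM, a log2 ratio of −4.40. The low values of NAS1 were in both libraries labelled mutant. The high value of FRO6 was in the library labelled wbc19 mutant + kanamycin, through which alone FRO6 reached the level of a member. FER1, a ferritin that stores iron in plastids, was at 14.1, 1.33, 68.9 and 24.8 FPKM, a log2 ratio of 3.47. The metallothioneins MT1A, MT2A, MT2B and MT1B, small proteins that bind copper and zinc, were the most abundant members of the list and had log2 ratios between −0.46 and 0.13. CPISCA, which assembles iron-sulfur clusters in chloroplasts, was at 65.4, 7.54, 78.5 and 101 FPKM, a log2 ratio of 3.58.

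The genes that the study names for photosynthesis, oxidoreduction or metal binding in this comparison have 31 entries in the table, CAB2 being there both as a gene and as an assembled locus, and 16 entries are members. The study chose them on these libraries, so their directions here are no independent evidence, and its real-time PCR assays of some of them are not used here. ENODL8, an early nodulin-like copper protein, was at 24.4, 97.4, 0 and 2.04 FPKM in the 4 libraries, a log2 ratio of −5.02. ENODL8 reached the level of a member only through the library labelled control + kanamycin. ECA2, a calcium pump, was at 3.36, 21.5, 62.8 and 0.399 FPKM, and GDH2, a glutamate dehydrogenase, at 88.5, 148, 280 and 39.1 FPKM. Both were lowest in the library labelled wbc19 mutant + kanamycin and highest in that labelled wbc19 mutant. AT5G65620, a zincin-like metalloprotease, was at 20.8, 0.259, 59.2 and 35.3 FPKM, so that the lower of its kanamycin values is about 1 read.

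Peroxisomal breakdown of oil had the highest median of the protein-coding lists, 1.12, with 4 higher and 1 lower of only 7 members. ACX2, an acyl-CoA oxidase, was at 24.6, 1.49, 21.1 and 36.8 FPKM in the 4 libraries, a log2 ratio of 3.92. AIM1, a multifunctional enzyme of beta-oxidation, was at 17.7, 7.05, 8.47 and 61.8 FPKM, a log2 ratio of 2.96. MFP2, its paralog, was lower with 27.0, 47.5, 7.45 and 17.7 FPKM. With members of at least 10 FPKM admitted, the median of the list was −0.25, so the shift depends on which genes are counted.

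Phenylpropanoid and flavonoid synthesis, which makes lignin precursors and pigments, had 5 higher and 1 lower of 16 members and a median log2 ratio of 0.78. The list lay 0.98 above the median of all members, but 0.24 above it at a mean of 50 FPKM or more. Among members chosen by the libraries without kanamycin it lay 0.96 above. TT4, the chalcone synthase beside which the T-DNA of the control line lies, was at 86.3, 80.8, 215 and 190 FPKM in the 4 libraries, a log2 ratio of 1.22. It was higher in both libraries labelled mutant than in both labelled control. FLS1, a flavonol synthase, was at 20.7, 4.64, 59.8 and 28.6 FPKM, a log2 ratio of 2.39. 4CL1, an enzyme ahead of the branch to lignin, was lower with 43.1, 68.7, 6.30 and 13.7 FPKM. Glucosinolate genes had 6 higher and 3 lower of 17 members and a median of 0.35, and TGG1, a myrosinase, was at 325 FPKM against 415. Their distance from the median of all members was 0.55, and −0.04 at a mean of 50 FPKM or more.

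Assimilation of nitrogen and sulfur had members on both sides. Nitrogen assimilation had 4 higher and 2 lower of 15 members and a median log2 ratio of 0.27, with NIA2, a nitrate reductase, at 396 FPKM against 430 and GS2, the plastid glutamine synthetase, at 570 against 640. Sulfur assimilation had 3 higher and 3 lower of 12 members and a median of −0.17. THIOL (AT4G14880), a cysteine synthase, was at 218 FPKM against 86.5, and CYSC1, a mitochondrial cyanoalanine synthase, at 280 against 122. Glycolysis had 1 higher and 3 lower of 17 members and a median of −0.12, and GAPC2, a glyceraldehyde phosphate dehydrogenase, was at 588 FPKM against 706. Proton and calcium pumps had 3 higher and 3 lower of 18 members and a median of −0.44.

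Markers of green tissue stayed within 2-fold between the kanamycin libraries, whereas root markers could be compared only in part. All 9 green shoot markers are members, 0 of them passed 2-fold, and their summed level was 12286 FPKM in the library labelled control + kanamycin and 13206 in that labelled wbc19 mutant + kanamycin. Of 19 root markers, 8 are members, and 7 were at 0 in each of these libraries, among them the endodermal CASP1 and CASP2 and the root nitrate transporter NRT2.1. The summed root level was 1262 and 1087 FPKM, of which PYK10, a beta-glucosidase of the endoplasmic reticulum in roots, gave 605 and 496. Of the list, 3 were higher and 5 lower, with a median log2 ratio of −0.06. Whole seedlings were used, so fewer cells of a type and less RNA per cell cannot be told apart. Of 9 seed storage markers, 1 was above 0 in the library labelled control + kanamycin and 0 in that labelled wbc19 mutant + kanamycin.

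Zero values were frequent among the members, from 134 in the library labelled control to 374 in that labelled wbc19 mutant. They were more frequent in the libraries where a read was worth least. Of the members, 279 were at 0 in the library labelled control + kanamycin and 217 in that labelled wbc19 mutant + kanamycin, and 82 were at 0 in both. Protein-coding members made up 155 and 116 of these counts. With all members at 0 in either library left out, 572 were higher and 918 lower of 3288.

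Transfer RNA precursors differed widely, but how far depended on the filter and on zeros. Of 131, 83 were higher and 16 lower, with a median log2 ratio of 3.22, and their median level was 6.42 FPKM in the library labelled control + kanamycin and 89.9 in that labelled wbc19 mutant + kanamycin. The list lay 3.41 above the median of all members, 1.41 above it with members at 0 in a kanamycin library left out, and level with it among members chosen by the libraries without kanamycin. Without kanamycin the direction was opposite, with 3 higher and 77 lower and a median of −1.21. Most of these genes are very short, and a level of 20 FPKM then stands for few reads, so that single reads decide many of the ratios. Many are identical copies, and the 131 genes had only 78 distinct sets of values. By amino acid, all 11 genes for glutamate, 22 of 23 for aspartate, 12 of 14 for tryptophan and 18 of 24 for glycine were higher, whereas genes for arginine had 4 higher and 5 lower of 11, and those for threonine 1 higher and 3 lower of 9. The genes for glutamate, aspartate, tryptophan and glycine had 7, 21, 4 and 7 distinct sets of values. All 14 genes for tryptophan were at 0 in the libraries labelled control + kanamycin and wbc19 mutant. All 24 for glycine were at 0 in the library labelled wbc19 mutant. Small nucleolar RNAs, the guides of ribosomal RNA modification, had 9 higher and 9 lower of 29, and 16 of them were at 0 in each kanamycin library.

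**Figure D5:**
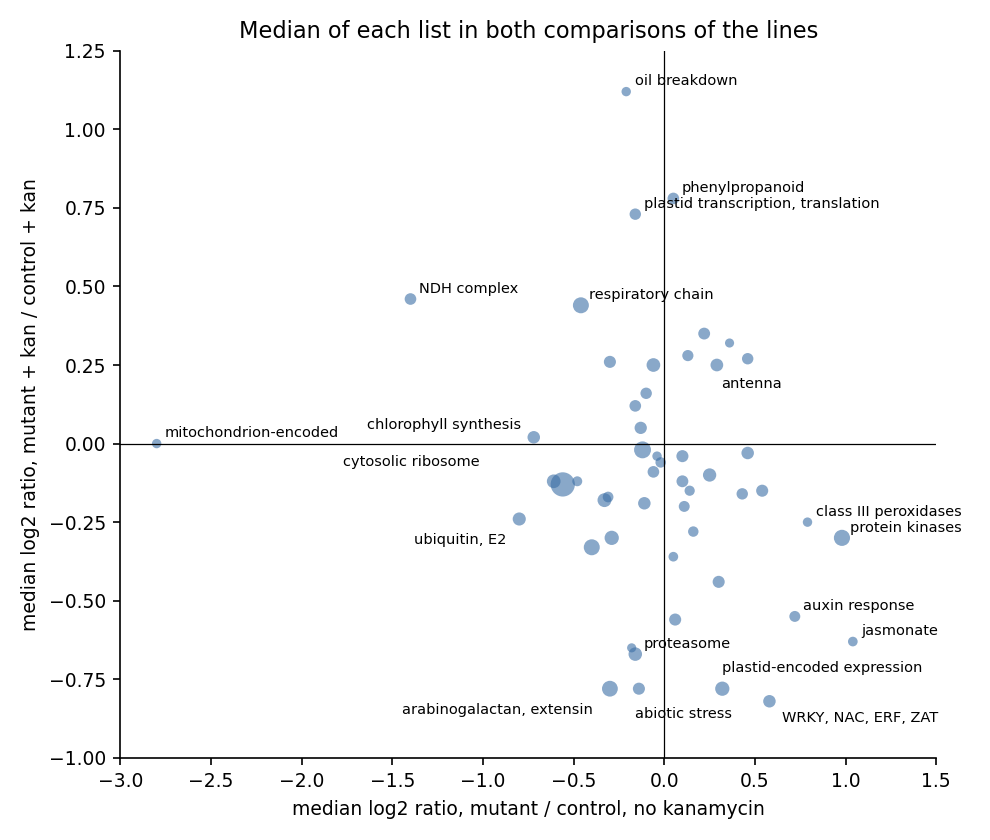
Median log2 ratio of 52 functional lists on kanamycin (y axis) against the median of the same members without kanamycin (x axis), both as mutant relative to control by label, with point size rising with the number of members. The WRKY, NAC, ERF and ZAT list lies at −0.82 and 0.58, the NDH complex at 0.46 and −1.40, and the 2 comparisons use different libraries.

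The 6 lists with a median of at least 0.5 without kanamycin were picked by that value as deposited, which upper-quartile scaling shifts by −1.02. None of them lay more than 0.05 above the median of all members on kanamycin. The jasmonate, auxin and WRKY, NAC, ERF and ZAT lists were at −0.63, −0.55 and −0.82 there, below the −0.19 of all members. The class III peroxidases, protein kinases and light signalling genes were at −0.25, −0.30 and −0.15, close to all members. Protein kinases had 20 higher and 3 lower of 40 members without kanamycin, against 10 and 13 on it. Among 54 lists on kanamycin, 8 lay at least 0.5 above the median of all members and 4 at least 0.5 below it. These were 13 and 2 after scaling by upper quartiles, and 5 and 4 among members chosen by the libraries without kanamycin. The lists hold 1201 of the 3702 members. Most others were described by their counts alone, and some were named for a large ratio, a value of 0 or their mention in the study.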

How the data were processed

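RNA of 4 seedling samples, 1 per condition, had been sequenced from one end after poly(A) selection, short fragmentation and PCR. The authors aligned reads to TAIR10 with TopHat2 2.0.5, assembled with Cufflinks 2.0.2 and compared with Cuffdiff 1.3.0, and the deposited values, headed rpkm, come from Cuffdiff, whose unit is FPKM. The authors' own comparison columns (log2 fold change, p, q, status) were not used. Of 33624 rows, 78 whose copies differed and 7 without a value were left out, and 27 values of 0.01 were read as 0. Ratios used a pseudocount of 1, members a mean of at least 20 FPKM, and calls a 2-fold limit. Lists are word searches of symbols and descriptions, from which loci of another function were dropped by their description, some after their values were seen. Members, lists and alternatives were chosen with earlier results of these data known. Named are, per list, the 4 most abundant members and both extremes, the 12 largest ratios each way above 5 FPKM in both kanamycin libraries, the genes the study names, and members at 0.

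Depth was estimated from the steps between low values of 6716 intronless genes, after subtracting 36 bases, where, between 0.5 and 3.5 reads, 64.3% to 73% came out whole with a tolerance of 0.2. In the library labelled wbc19 mutant this rests on 56 values. Other lengths come from a later annotation of the same assembly and exist for 3493 members, so read numbers are approximate. The steps also imply fewer reads than the study reports as mapped. Rules were tested on simulated data with counting error alone. These hold neither the uneven spread of reads nor variation between samples, so they do not bear on how far the calls would repeat. Python 3.11.15, numpy 2.4.6, pandas 2.3.3, scipy 1.17.1 and matplotlib 3.10.9 were used.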

Additional observations from a re-analysis of the deposited data

How the results depend on the processing

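The counts of 768 higher and 1051 lower members and the median log2 ratio of −0.19 depended on scale and filter. Scaling by upper quartiles gave 694 lower members and a median of 0.26. Of 6515 members of at least 10 FPKM, 1617 were higher and 1978 lower, and of 1541 of at least 50 FPKM, 192 and 358. Without a filter, 5535 of 33539 rows were higher and 4604 lower. The size of the set therefore moves these counts as well. Of 3081 members above 5 FPKM in both kanamycin libraries, a limit chosen after seeing the data, 488 (15.8%) were higher and 808 (26.2%) lower. Pseudocounts of 0.1 and 5, scaling by the median of ratios, members chosen by the libraries without kanamycin (862 higher, 842 lower), members without zeros and protein-coding members alone left these counts within 1.5 times. The median of the oil breakdown list, 1.12, was −0.25 at 10 FPKM. Of 54 list medians, 27 changed sign by upper quartiles and 14 by the median of ratios, none of them lying below −0.55 before. No paired analysis was possible because each condition has 1 library. The fewest reads lie behind short genes and members near 20 FPKM, about 14.6 per kb in the library labelled wbc19 mutant + kanamycin.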
